A study of Rattus norvegicus with 8 samples.

Results

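Cytochromes P450 of the CYP1, CYP2 and CYP3 families were followed in regenerating rat liver, as 34 genes of the 18166 that the array names by a single symbol. They were taken by symbol (Cyp, then 1, 2 or 3, then a letter and a number), without Cyp2b1, Cyp2b2 and Cyp2e1. Each had 1 probe set, and 23 of them reached a mean level of 5 on the log2 scale over the 8 arrays and were tested, while 11 did not. Symbols with a suffix (Cyp2c6v1, Cyp3a23-3a1) and the 2 probe sets that join several symbols, one of which holds Cyp2d1 and Cyp2d5, are outside the set. The lowest mean inside the limit was 5.05 (Cyp3a73) and the highest outside it was 4.86 (Cyp2j10).

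The livers came from male Sprague-Dawley rats, an outbred strain, on a chronic ethanol diet or on a pair-fed control diet, in which carbohydrate takes the place of ethanol. Within each diet, rats received AM21, which is an LNA-modified (locked nucleic acid) antisense strand directed at the microRNA miR-21, or were left untreated. AM21 was injected into the abdomen at 7.5 mg/kg in 1 ml of saline 72 h before the operation and again directly after it. Tissue was taken 24 h after removal of 70% of the liver (partial hepatectomy, PHx) and at the operation itself (0 h), from the same animals. This gave 4 pools (ethanol-fed AM21, ethanol-fed untreated, pair-fed AM21, pair-fed untreated), each of RNA from 3 (AM21) or 4 (untreated) rats and each with 1 array at 24 h and 1 at 0 h. No array was of sham-operated rats and no control oligonucleotide was analysed here. PHx therefore cannot be told apart from surgery and elapsed time, nor from the part of the liver sampled at each time. The AM21 and untreated rats have separate ranges of animal numbers, so AM21 and cohort cannot be told apart either. Ages are not given in the labels.

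P450s are haem enzymes of the endoplasmic reticulum that oxidise drugs, steroids, fatty acids and other small molecules, with electrons passed on by the reductase Por. In rat liver several are sex-biased, under control of the growth hormone secretion pattern, and others are induced by foreign compounds through the receptors AhR, CAR and PXR. Loss of P450 expression after liver resection or inflammation has long been described in rodents. The microRNA that AM21 is directed against is given here in its RefSeq form (GRCr8, chr10:71902653-71902674, minus strand), with bases 2 to 8, the seed that pairs with target RNAs, in capitals.
rno-miR-21-5p: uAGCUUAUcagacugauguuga

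Before the results, 3 pairs of members are shown by the DNA upstream of their RefSeq start sites, as the tested members whose upstream DNA is most alike, to be set beside their responses to PHx. Of 34 members, 32 had a RefSeq promoter in GRCr8. All 496 pairs of their 250 upstream bases were aligned locally, and 9 pairs matched over at least 100 columns with at least 70% identity. Of these, 3 had both genes tested and are printed 5′ to 3′, with capitals at bases that differ from the partner or face a gap. The first pair joined Cyp2c11, which fell after PHx, and Cyp2c55, which rose, with 160 of 209 aligned columns identical (76.6%). Cyp2c11 lies at chr1:246175019-246175213 (plus strand) and Cyp2c55 at chr1:246421577-246421782 (plus strand).
Cyp2c11: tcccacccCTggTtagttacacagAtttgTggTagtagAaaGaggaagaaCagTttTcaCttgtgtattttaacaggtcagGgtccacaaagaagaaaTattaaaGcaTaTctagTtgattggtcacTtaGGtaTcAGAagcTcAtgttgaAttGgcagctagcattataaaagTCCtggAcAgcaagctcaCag
Cyp2c55: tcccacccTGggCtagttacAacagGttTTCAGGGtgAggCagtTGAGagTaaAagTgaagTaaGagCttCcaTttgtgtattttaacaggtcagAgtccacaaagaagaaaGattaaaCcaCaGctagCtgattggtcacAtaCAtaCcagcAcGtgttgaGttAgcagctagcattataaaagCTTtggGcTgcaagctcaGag
The second pair joined Cyp2c12, known as a female-specific P450, and Cyp2c13, known as a male-specific one, with 145 of 204 columns identical (71.1%). Cyp2c12 lies at chr1:248677046-248677249 and Cyp2c13 at chr1:248787189-248787373, both on the minus strand.
Cyp2c12: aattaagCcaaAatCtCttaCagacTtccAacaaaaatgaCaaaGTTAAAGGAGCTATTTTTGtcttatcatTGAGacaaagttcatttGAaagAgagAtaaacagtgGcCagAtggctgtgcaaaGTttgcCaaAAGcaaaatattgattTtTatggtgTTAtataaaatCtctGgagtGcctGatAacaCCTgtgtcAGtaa
Cyp2c13: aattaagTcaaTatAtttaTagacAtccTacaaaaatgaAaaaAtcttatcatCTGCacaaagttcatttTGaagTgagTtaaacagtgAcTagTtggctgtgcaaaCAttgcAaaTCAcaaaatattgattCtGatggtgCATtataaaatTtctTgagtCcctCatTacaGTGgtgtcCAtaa
The third pair joined the neighbours Cyp2d3 and Cyp2d5, which both fell, with 205 of 211 columns identical (97.2%). Cyp2d3 lies at chr7:115802143-115802353 and Cyp2d5 at chr7:115784527-115784737, both on the minus strand.
Cyp2d3: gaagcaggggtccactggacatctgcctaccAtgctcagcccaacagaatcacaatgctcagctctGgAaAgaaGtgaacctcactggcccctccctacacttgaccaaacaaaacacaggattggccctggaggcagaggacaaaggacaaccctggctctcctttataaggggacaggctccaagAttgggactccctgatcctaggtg
Cyp2d5: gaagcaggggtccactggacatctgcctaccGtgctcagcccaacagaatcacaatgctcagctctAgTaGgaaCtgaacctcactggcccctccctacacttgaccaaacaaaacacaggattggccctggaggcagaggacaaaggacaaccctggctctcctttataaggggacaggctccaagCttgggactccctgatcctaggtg
Upstream bases of the 22 tested members with a promoter were searched on both strands for 5 short motifs. The TATA box core TATAAA was present in 8 of 22, against 12.9% of all 33469 RefSeq promoter windows of the same length. Part of the direct repeat bound by the hepatocyte factor HNF4A, CAAAGNNCA, was present in 7 of 22 (Cyp2a1, Cyp2c12, Cyp2c13, Cyp2d2, Cyp2d3, Cyp2d5, Cyp3a2), against 5.22% of all windows. TTGCNNAA, a core of C/EBP sites, was present in 6 of 22 against 9.22%, and TTCNNNGAA, a core of STAT5 sites, in 3 of 22 against 7.67%. The AhR core TNGCGTG was present in 0 of 22 against 4.09%. A member counted if any of its windows matched, while the background is the share of single windows, so the units differ. Close relatives such as Cyp2d3 and Cyp2d5 are not separate matches. These matches describe letters in a short window. They are not binding sites shown by these data.

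Most tested P450s were lower at 24 h after PHx than at 0 h. Of 23 tested members 12 fell and 3 rose in the paired fit over 4 pools (limma, Benjamini-Hochberg adjusted p under 0.05 over 8690 genes). Among all tested genes 12.8% fell and 15.3% rose, together 28.1%, against 65.2% of the members. The median change of the 23 members was -0.55 on the log2 scale, and that of all 8690 genes was 0.01. By pool, the members' median change was -0.40 in ethanol-fed AM21, -0.35 in ethanol-fed untreated, -0.67 in pair-fed AM21 and -0.55 in pair-fed untreated livers. Fewer hepatocytes and less RNA per hepatocyte cannot be told apart in bulk liver. Changes are fitted log2 differences over 4 pools ± the limma SE unless stated. This SE uses a variance drawn toward that of all tested genes, so it is not the spread of the 4 pool changes alone.

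**Figure D1:**
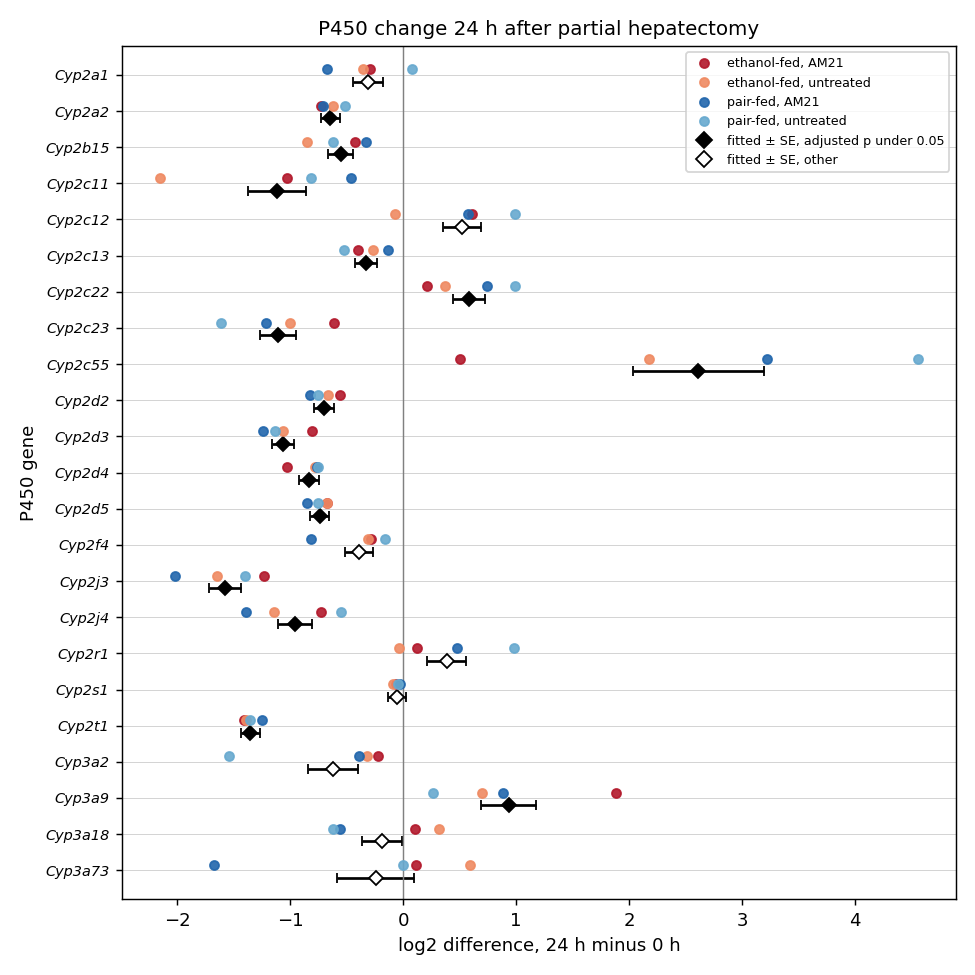
Change of the 23 tested P450 genes after PHx (x axis: log2 difference, 24 h minus 0 h; y axis: gene). Coloured circles are the 4 pools and diamonds the fitted change with its SE, black where the adjusted p was under 0.05. The 4 Cyp2d genes lie left of 0 in every pool, and Cyp2c55 spreads from 0.50 to 4.55.

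Cyp2j3, like Cyp2j4 an arachidonic acid epoxygenase, and the little-studied Cyp2t1 had the largest fitted falls among the tested members. In ethanol-fed livers Cyp2j3 stood at 8.27 (AM21) and 7.94 (untreated) at 24 h, against 9.50 and 9.59 at 0 h. In pair-fed livers it stood at 7.42 (AM21) and 7.70 (untreated) at 24 h, against 9.44 and 9.10 at 0 h. All 24 h arrays lay below all 0 h arrays, and the fitted change of Cyp2j3 was -1.57 ± 0.14, or 2.98-fold lower (limma adjusted p = 0.00158). Its neighbour Cyp2j4 had 24 h levels of 8.80 (AM21) and 8.27 (untreated) in ethanol-fed and 7.90 (AM21) and 8.88 (untreated) in pair-fed livers. The 0 h levels of Cyp2j4 were 9.53 (AM21) and 9.41 (untreated) in ethanol-fed and 9.29 (AM21) and 9.43 (untreated) in pair-fed livers. These groups did not overlap either, and Cyp2j4 fell by 0.95 on the log2 scale (± 0.15, adjusted p = 0.00589).

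Cyp2t1 showed the most even response of the falling genes in its 4 pools. It stood at 6.70 (AM21) and 7.04 (untreated) at 24 h in ethanol-fed livers, against 8.11 and 8.43 at 0 h. In pair-fed livers Cyp2t1 stood at 6.80 (AM21) and 6.65 (untreated) at 24 h, against 8.05 and 8.001 at 0 h. Its 4 pool changes ran from -1.41 to -1.25, with a fitted change of -1.35 ± 0.08 (adjusted p = 0.000703).

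All 4 tested Cyp2d genes, a cluster on chromosome 7 whose products oxidise many basic drugs, fell. Cyp2d3 stood at 10.10 (AM21) and 9.83 (untreated) in ethanol-fed and 9.55 (AM21) and 9.72 (untreated) in pair-fed livers at 24 h. At 0 h it stood at 10.91 (AM21) and 10.90 (untreated) in ethanol-fed and 10.79 (AM21) and 10.86 (untreated) in pair-fed livers. The 24 h values of Cyp2d3 were all the lower ones, with a change of -1.06 ± 0.10 (adjusted p = 0.00166).
Cyp2d4, best known from brain, had 24 h levels of 6.56 (AM21) and 6.81 (untreated) in ethanol-fed and 6.69 (AM21) and 6.70 (untreated) in pair-fed livers. Its 0 h levels were 7.58 (AM21) and 7.59 (untreated) in ethanol-fed and 7.46 (AM21) and 7.45 (untreated) in pair-fed livers. The change of Cyp2d4 was -0.83 ± 0.09 (adjusted p = 0.00202), without overlap between the times.
Cyp2d5 stood at 9.55 (AM21) and 9.04 (untreated) in ethanol-fed and 9.10 (AM21) and 9.26 (untreated) in pair-fed livers at 24 h. At 0 h Cyp2d5 stood at 10.22 (AM21) and 9.71 (untreated) in ethanol-fed and 9.95 (AM21) and 10.01 (untreated) in pair-fed livers. It fell by 0.74 (± 0.08, adjusted p = 0.00219), and Cyp2d2, the debrisoquine-oxidising member in rat, by 0.70 (± 0.09, adjusted p = 0.0029). Whether probe sets of close P450 relatives, in this and the other subfamilies, share signal was not tested, and related members may not be independent.

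The Cyp2c genes went both ways, with 2 rises and 3 falls among 6 tested. Cyp2c11, the main male-specific P450 of rat liver and a testosterone hydroxylase, stood at 9.80 (AM21) and 8.58 (untreated) at 24 h in ethanol-fed livers, against 10.83 and 10.73 at 0 h. In pair-fed livers Cyp2c11 stood at 10.82 (AM21) and 10.58 (untreated) at 24 h, against 11.28 and 11.39 at 0 h. Each pool fell, by between 0.46 and 2.15, while the groups of all 24 h and all 0 h arrays overlapped slightly. The fitted change was -1.11 ± 0.26 (adjusted p = 0.0215), and it did not pass without the ethanol-fed AM21 pool (adjusted p = 0.0601) or the pair-fed untreated pool (0.0554).
Cyp2c23, an arachidonic acid epoxygenase, stood at 10.47 (AM21) and 10.26 (untreated) in ethanol-fed and 9.97 (AM21) and 9.59 (untreated) in pair-fed livers at 24 h. At 0 h Cyp2c23 stood at 11.08 (AM21) and 11.26 (untreated) in ethanol-fed and 11.19 (AM21) and 11.20 (untreated) in pair-fed livers. The times did not overlap, and the change was -1.11 ± 0.16 (adjusted p = 0.00453).
Cyp2c13 had 24 h levels of 10.90 (AM21) and 10.80 (untreated) in ethanol-fed and 11.07 (AM21) and 10.90 (untreated) in pair-fed livers. Its 0 h levels were 11.30 (AM21) and 11.07 (untreated) in ethanol-fed and 11.21 (AM21) and 11.42 (untreated) in pair-fed livers. The change of Cyp2c13 was small, -0.33 ± 0.10 (adjusted p = 0.044). Its call was lost without any 1 of the 4 pools, with adjusted p of 0.146 without ethanol-fed AM21, 0.110 without ethanol-fed untreated, 0.0506 without pair-fed AM21 and 0.115 without pair-fed untreated. It was also lost without a level minimum (adjusted p = 0.113).

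The largest rise was that of Cyp2c55, whose mouse counterpart is known as an intestinal and PXR- and CAR-inducible P450. At 24 h Cyp2c55 stood at 8.60 (AM21) and 8.82 (untreated) in ethanol-fed and 7.68 (AM21) and 9.29 (untreated) in pair-fed livers. At 0 h it stood at 8.10 (AM21) and 6.64 (untreated) in ethanol-fed and 4.46 (AM21) and 4.74 (untreated) in pair-fed livers. Both pair-fed 0 h levels were under 5, where no detection call was available, and the size of the change is uncertain for that reason. The fitted change was 2.61 ± 0.58, or 6.11-fold higher (adjusted p = 0.0186), and the 4 pools all rose, by 0.50 to 4.55. The call was lost when the pair-fed AM21 pool (adjusted p = 0.0746) or the pair-fed untreated pool (0.0502) was left out. The promoter shown above for Cyp2c55 is close to that of Cyp2c11, which moved in the other direction in all 4 pools.
Cyp2c22, in rat a retinoic acid hydroxylase, had 24 h levels of 11.73 (AM21) and 11.85 (untreated) in ethanol-fed and 11.79 (AM21) and 11.96 (untreated) in pair-fed livers. Its 0 h levels were 11.51 (AM21) and 11.48 (untreated) in ethanol-fed and 11.05 (AM21) and 10.97 (untreated) in pair-fed livers. The 24 h arrays of Cyp2c22 were all above the 0 h arrays, with a rise of 0.58 ± 0.14 (adjusted p = 0.0256). The call was lost without the pair-fed AM21 pool (adjusted p = 0.0887), without the pair-fed untreated pool (0.0698) and without a level minimum (0.0514).
Cyp2c12 stood at 8.95 (AM21) and 9.38 (untreated) in ethanol-fed and 9.21 (AM21) and 9.30 (untreated) in pair-fed livers at 24 h. At 0 h Cyp2c12 stood at 8.34 (AM21) and 9.46 (untreated) in ethanol-fed and 8.64 (AM21) and 8.31 (untreated) in pair-fed livers. It was higher at 24 h in 3 of 4 pools, and the change of 0.52 ± 0.17 did not pass (limma adjusted p = 0.0588, and 0.0185 without the ethanol-fed untreated pool). Cyp2c12 is known as female-specific, and these rats were male. Whether its probe set took up signal of a close relative was not tested.

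**Figure D2:**
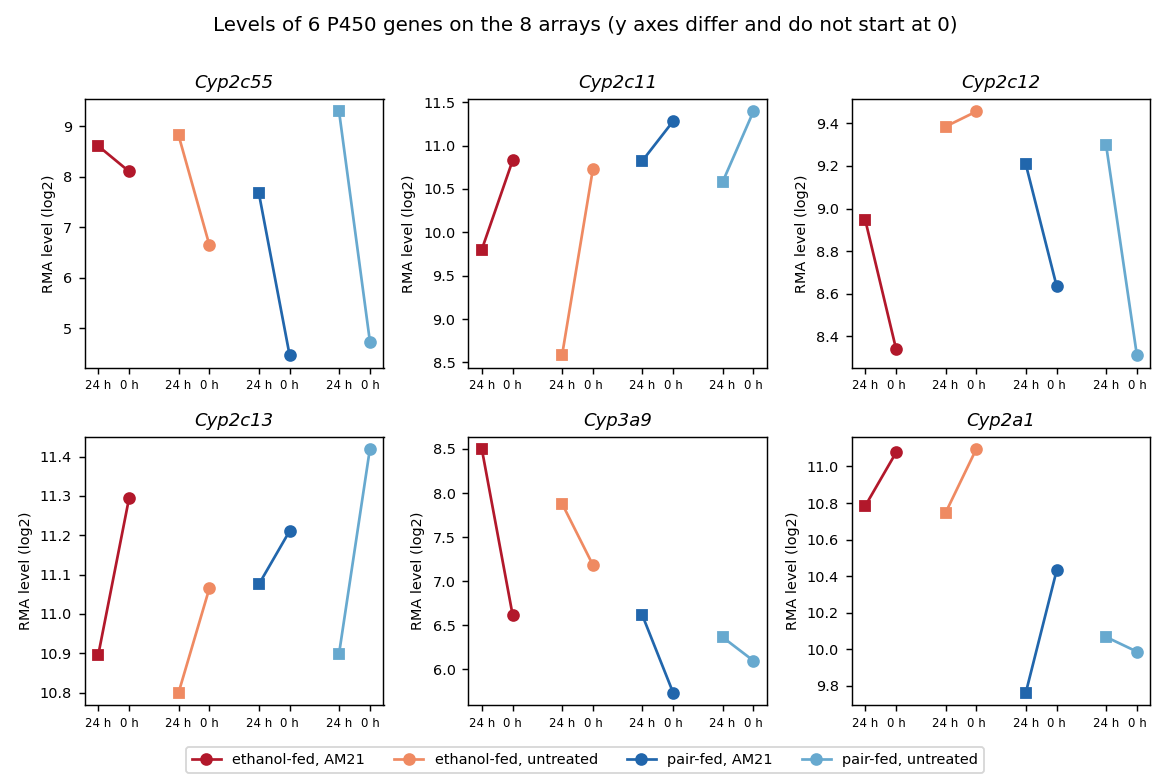
RMA log2 levels of Cyp2c55, Cyp2c11, Cyp2c12, Cyp2c13, Cyp3a9 and Cyp2a1 on the 8 arrays (y axis: log2 level; x axis: time within each pool, squares 24 h and circles 0 h, each symbol 1 array). A line joins the 2 arrays of a pool. Cyp2c55 stood at 4.46 and 4.74 in pair-fed livers at 0 h, and every ethanol-fed array of Cyp2a1 was above every pair-fed one.

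Of the 4 tested Cyp3a genes 1 rose and 0 fell. Cyp3a9, a steroid-hydroxylating and female-predominant member, stood at 8.50 (AM21) and 7.88 (untreated) at 24 h in ethanol-fed livers, against 6.61 and 7.18 at 0 h. In pair-fed livers Cyp3a9 stood at 6.61 (AM21) and 6.36 (untreated) at 24 h, against 5.73 and 6.10 at 0 h. Every pool rose, by 0.27 to 1.89, with a fitted change of 0.93 ± 0.24 (adjusted p = 0.0318). The call of Cyp3a9 was lost without the pair-fed AM21 pool (adjusted p = 0.0903), without the ethanol-fed untreated pool (0.0637) and without a level minimum (0.0526).
Cyp3a2, a male-predominant testosterone hydroxylase, stood at 7.07 (AM21) and 6.57 (untreated) in ethanol-fed and 6.67 (AM21) and 6.35 (untreated) in pair-fed livers at 24 h. At 0 h Cyp3a2 stood at 7.30 (AM21) and 6.90 (untreated) in ethanol-fed and 7.06 (AM21) and 7.89 (untreated) in pair-fed livers. It was lower at 24 h in all 4 pools, at -0.62 ± 0.22, and did not pass (adjusted p = 0.0826).
Cyp3a18, also male-predominant, had 24 h levels of 10.18 (AM21) and 9.95 (untreated) in ethanol-fed and 9.27 (AM21) and 9.71 (untreated) in pair-fed livers. Its 0 h levels were 10.07 (AM21) and 9.64 (untreated) in ethanol-fed and 9.83 (AM21) and 10.33 (untreated) in pair-fed livers. The pools went in both directions, and the fitted change was -0.19 ± 0.18 (adjusted p = 0.466). Cyp3a73 was between 4.14 and 5.39 at 24 h and between 4.501 and 5.81 at 0 h, close to the level limit, and its change of -0.24 ± 0.34 did not pass.

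Among the remaining subfamilies, Cyp2a2, a male-specific testosterone hydroxylase, stood at 10.01 (AM21) and 9.52 (untreated) in ethanol-fed and 9.82 (AM21) and 9.83 (untreated) in pair-fed livers at 24 h. At 0 h Cyp2a2 stood at 10.74 (AM21) and 10.14 (untreated) in ethanol-fed and 10.54 (AM21) and 10.35 (untreated) in pair-fed livers. All 24 h arrays were below all 0 h arrays, and Cyp2a2 fell by 0.64 (± 0.08, adjusted p = 0.00347). Cyp2b15, the single tested member of its subfamily, fell by 0.55 (± 0.11, adjusted p = 0.0129) at levels of 4.63 to 5.49, where the size is uncertain.
Cyp2r1, a vitamin D hydroxylase, stood at 6.51 (AM21) and 6.56 (untreated) in ethanol-fed and 6.91 (AM21) and 6.92 (untreated) in pair-fed livers at 24 h. At 0 h Cyp2r1 stood at 6.39 (AM21) and 6.60 (untreated) in ethanol-fed and 6.43 (AM21) and 5.94 (untreated) in pair-fed livers. Its change of 0.39 ± 0.17 did not pass (adjusted p = 0.140). Neither did those of Cyp2f4 (-0.39 ± 0.12, adjusted p = 0.0596), an oxidase best known from lung, and Cyp2a1 (-0.31 ± 0.13, adjusted p = 0.124). Cyp2s1, mainly an epithelial P450 outside the liver, changed least of the tested members, with -0.06 ± 0.08 at levels of 4.99 to 5.18.

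The members known as male-biased (Cyp2a2, Cyp2c11, Cyp2c13, Cyp3a2, Cyp3a18) included 3 falls and 0 rises of 5 after PHx, with a median change of -0.62. Those known as female-biased (Cyp2a1, Cyp2c12, Cyp3a9; the listed Cyp2c7 was not analysed here) included 1 rise and 0 falls of 3, with a median of 0.52. For all tested genes these shares were 12.8% falls and 15.3% rises. Among all 23 tested members 52.2% fell and 13% rose, with a median of -0.55, so the male-biased list is close to the members as a whole. The calls of Cyp2c11 and Cyp2c13 were lost without some single pools. The female-biased median is the change of Cyp2c12, which did not pass, and Cyp2a1 changed by -0.31. With ethanol 0 of 5 male-biased members passed (median difference -0.03) and 1 of 3 female-biased ones did, Cyp2a1 (median 0.87). The difference between the 2 lists was not tested.

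Several genes that serve or regulate P450s moved over the same interval. Of 7 tested electron donors and haem-binding P450 partners 2 fell and 0 rose. These were the cytochrome b5 reductase Cyb5r3 (-0.78 ± 0.13) and the haem-binding partner Pgrmc1 (-0.51 ± 0.09). The reductase Por was not called. It changed by -0.001 (AM21) and 0.16 (untreated) in ethanol-fed and by -0.73 (AM21) and -1.24 (untreated) in pair-fed pools. Of 9 genes of haem synthesis and breakdown 1 fell, the haem oxygenase Hmox2 (-0.57 ± 0.11). Of 14 xenobiotic receptors and their partners 8 fell and 0 rose (median -0.42), led by Ppara, the fatty acid-sensing receptor, at -1.49 ± 0.16 and Nr0b2, the bile acid-induced repressor SHP, at -1.17 ± 0.30. The glucocorticoid receptor Nr3c1 (-0.82 ± 0.13) and the bile acid receptor Nr1h4 (-0.61 ± 0.11) followed. Changes of AhR, CAR and PXR are given by pool (ethanol-fed AM21, ethanol-fed untreated, pair-fed AM21, pair-fed untreated). AhR changed by -0.24, -0.42, -0.04 and -0.12, and CAR (Nr1i3) by 0.31, -0.16, -0.13 and -1.15. PXR (Nr1i2) changed by -0.29, -0.23, -0.41 and -0.86. Of 12 liver transcription factors 2 fell, with Cebpa, a hepatocyte differentiation factor, at -1.03 ± 0.14. Of 9 genes of the growth hormone axis 6 fell and 0 rose (median -0.57), led by Socs2, a growth hormone-induced inhibitor, at -1.68 ± 0.33, with the prolactin receptor Prlr at -1.27 ± 0.15 and Igfals, which binds circulating IGF, at -1.14 ± 0.09. Each count is read against 12.8% falls among all tested genes.

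Markers of liver cell types were measured beside these changes. The 8 hepatocyte markers with a probe set averaged 11.77 to 11.81 on the 24 h arrays and 11.78 to 11.83 on the 0 h arrays, and 0 of 8 were called for PHx, diet or AM21. Of 9 tested periportal hepatocyte markers 3 fell and 0 rose after PHx, Sds (-1.60 ± 0.32), Gls2 (-0.64 ± 0.16) and Pck1 (-0.48 ± 0.09), which serve amino acid breakdown and glucose synthesis. Of 8 tested pericentral markers other than P450s 1 rose, the Wnt target Axin2 (1.003 ± 0.13), and 2 fell, Rhbg (-0.43 ± 0.10) and Gulo (-0.41 ± 0.10). Of 3 tested neutrophil and monocyte markers 2 were called higher after PHx, S100a8 (mean 7.62 at 24 h and 4.53 at 0 h) and S100a9 (6.91 at 24 h and 4.90 at 0 h), which passed the level limit only through their 24 h arrays, so this count supports nothing by itself (the 9 measured averaged 4.61 to 5.21 at 24 h and 4.11 to 4.42 at 0 h), and 6 of the 9, such as Mpo and Elane, had means under 5. Of 12 macrophage markers 1 rose and 3 fell after PHx, and 2 were higher with ethanol. Their mean level was 7.75 to 7.92 on the ethanol-fed arrays and 7.21 to 7.48 on the pair-fed arrays, without overlap. Of 6 tested endothelial markers 3 fell, of 8 stellate cell markers 2 rose and 3 fell, and of 2 lymphocyte markers 2 fell (9 of 11 had means under 5). Neither of the 2 tested cholangiocyte or 2 tested red cell markers was called. These counts are read against 12.8% falls and 15.3% rises (28.1% together) after PHx among all tested genes, and 0.38% higher with ethanol. The macrophage and periportal counts for PHx are near the 28.1%. The part of other cell types in the P450 changes was not tested.

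Ethanol feeding was compared over the 4 ethanol-fed and 4 pair-fed arrays, averaged over AM21 and time. Of 23 members 1 was higher in ethanol-fed livers, Cyp2a1, and 0 were lower, where 0.38% and 0.0806% of all tested genes were (0.46% in either direction). The members' median difference was 0.09, and that of all genes 0.01. Each pool entered with both of its arrays, counted as independent, so the 8 arrays overstate the number of separate samples. Cyp2a1, a testosterone hydroxylase that is more abundant in females, stood at 10.78 (AM21) and 10.75 (untreated) in ethanol-fed livers at 24 h, against 9.76 and 10.07 in pair-fed livers. At 0 h it stood at 11.08 (AM21) and 11.10 (untreated) in ethanol-fed livers, against 10.43 and 9.99 in pair-fed livers. All ethanol-fed arrays were above all pair-fed arrays, with means of 10.93 ± 0.19 and 10.06 ± 0.28 (SD, n = 4 arrays each). The fitted difference was 0.87 ± 0.12, or 1.82-fold (limma adjusted p = 0.0322). The call held when the pair-fed AM21 0 h array was left out and was lost without any 1 of the other 7 arrays, with adjusted p between 0.0601 (without pair-fed untreated 24 h) and 0.130 (without ethanol-fed untreated 24 h). Over all 18 alternatives Cyp2a1 passed in 6, with adjusted p from 0.0101 to 0.392. The difference itself stayed between 0.76 and 0.96 in all 18.

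**Figure D3:**
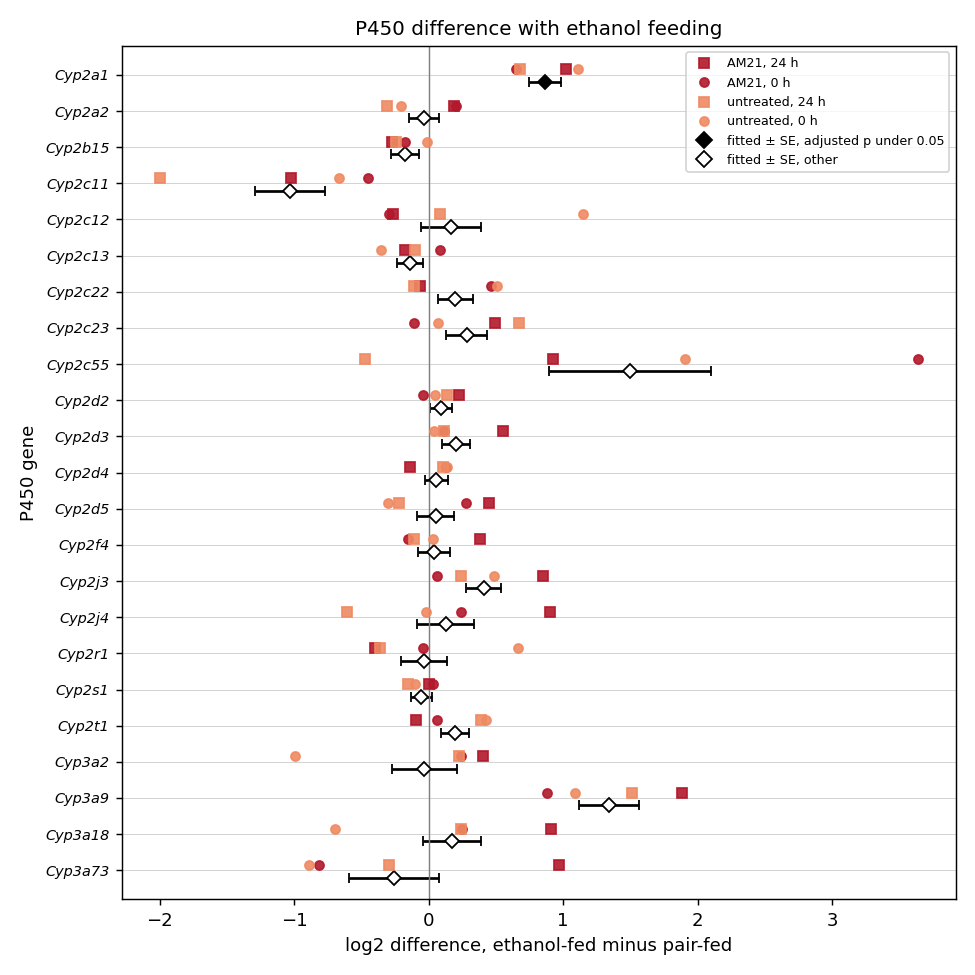
Difference between ethanol-fed and pair-fed livers in the 23 tested P450 genes (x axis: log2 difference, ethanol-fed minus pair-fed; y axis: gene). Coloured symbols are the 4 pairs of arrays (squares 24 h, circles 0 h) and diamonds the fitted difference with its SE, black where the adjusted p was under 0.05. Cyp2a1 and Cyp3a9 lie right of 0 in all 4 pairs, and Cyp2c11 left of 0.

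At an unadjusted p under 0.05 there were 5 of 23 members and 1335 of 8690 genes. These were Cyp2a1 and 4 members that did not pass. Cyp3a9 had a mean of 7.55 ± 0.82 over ethanol-fed arrays and of 6.20 ± 0.38 over pair-fed arrays (SD, n = 4). The lowest ethanol-fed and the highest pair-fed array both stood at 6.61, so the groups touched, with a fitted difference of 1.34 ± 0.23 (limma adjusted p = 0.0564). It was higher with ethanol in 4 of 4 pairs, by 0.88 to 1.89, and passed in 5 of 18 alternatives, among them the 0 h arrays alone (adjusted p = 0.0401). Its adjusted p ranged from 0.000803 to 0.392 over these alternatives. Cyp2c11 had a mean of 9.98 ± 1.04 over ethanol-fed arrays and of 11.02 ± 0.38 over pair-fed arrays. It was lower with ethanol in 4 of 4 pairs, with differences of -0.45 (0 h) and -1.02 (24 h) in the AM21 pairs and -0.66 (0 h) and -1.997 (24 h) in the untreated pairs, with a fitted difference of -1.03 ± 0.26 (adjusted p = 0.129; 0.00393 to 0.463 over the alternatives). Cyp2j3 differed by 0.41 ± 0.13 (adjusted p = 0.203) and Cyp2c55 was 2.83-fold higher with ethanol (SE 0.60 on the log2 scale, adjusted p = 0.295). The differences of Cyp2c55 between the diets were 3.64 (AM21) and 1.91 (untreated) at 0 h and 0.92 (AM21) and -0.47 (untreated) at 24 h. In the 0 h arrays alone Cyp2c55 was higher with ethanol by 2.77 (adjusted p = 0.0170), with both pair-fed levels under 5. The fits to the 0 h arrays alone, here and for Cyp3a9, used 4 arrays. They left few residual degrees of freedom and leaned on variance borrowed from all tested genes. Over all 18 alternatives Cyp2c55 passed in 2, with adjusted p from 0.000297 to 0.825. The fitted differences of the Cyp2d genes lay between 0.05 and 0.21, with a smallest adjusted p of 0.399.

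The response to PHx differed by diet in 1 member, Cyp2c55, which rose less in ethanol-fed pools. Of all tested genes 0.529% were called, 0.46% with a smaller or more negative response in ethanol-fed pools and 0.069% with the opposite sign, which 0 of 23 members had. Cyp2c55 changed by 0.50 (AM21) and 2.17 (untreated) in the ethanol-fed pools, against 3.22 and 4.55 in the pair-fed pools. The difference of these responses was -2.54 ± 0.21 (limma, paired fit with 1 residual degree of freedom, adjusted p = 0.00522). The pair-fed 0 h levels under 5 make its size uncertain. The call was lost without a level minimum (adjusted p = 0.0515), without the pool block (0.280) and without the AM21 term (0.416). At an unadjusted p under 0.05 there were 9 of 23 members and 943 of 8690 genes. Among these 9, the fall of Cyp2c11 was larger in ethanol-fed pools (1.03 and 2.15) than in pair-fed pools (0.46 and 0.81). The difference of -0.95 ± 0.24 did not pass (limma adjusted p = 0.164). Cyp2c23 fell by 0.61 (AM21) and 1.00 (untreated) in ethanol-fed and by 1.21 (AM21) and 1.61 (untreated) in pair-fed pools (difference 0.61 ± 0.20, adjusted p = 0.284). All 4 Cyp3a genes had a positive difference, from 0.69 for Cyp3a2 to 1.19 for Cyp3a73, and 0 of 4 passed (smallest adjusted p = 0.151).

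AM21 was compared with no treatment over 4 arrays each, averaged over diet and time. No member passed (0 of 23), and 0% of all tested genes did. At an unadjusted p under 0.05 there were 1 member, Cyp2a2, and 538 of 8690 genes, and limma with an intensity trend and a robust prior also called 0. The fitted differences of the members ran from -0.33 (Cyp2c12) to 0.36 (Cyp2c11), with SE from 0.08 to 0.60, and their median was 0.01. Cyp2a2 was higher with AM21 by 0.60 and 0.49 in ethanol-fed livers at 0 h and 24 h and by 0.19 and -0.01 in pair-fed livers, with a fitted difference of 0.32 ± 0.11 (adjusted p = 0.763). Differences for Cyp2c55 were 1.46 (0 h) and -0.21 (24 h) in ethanol-fed and -0.27 (0 h) and -1.61 (24 h) in pair-fed livers, the widest spread among the tested members.

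**Figure D4:**
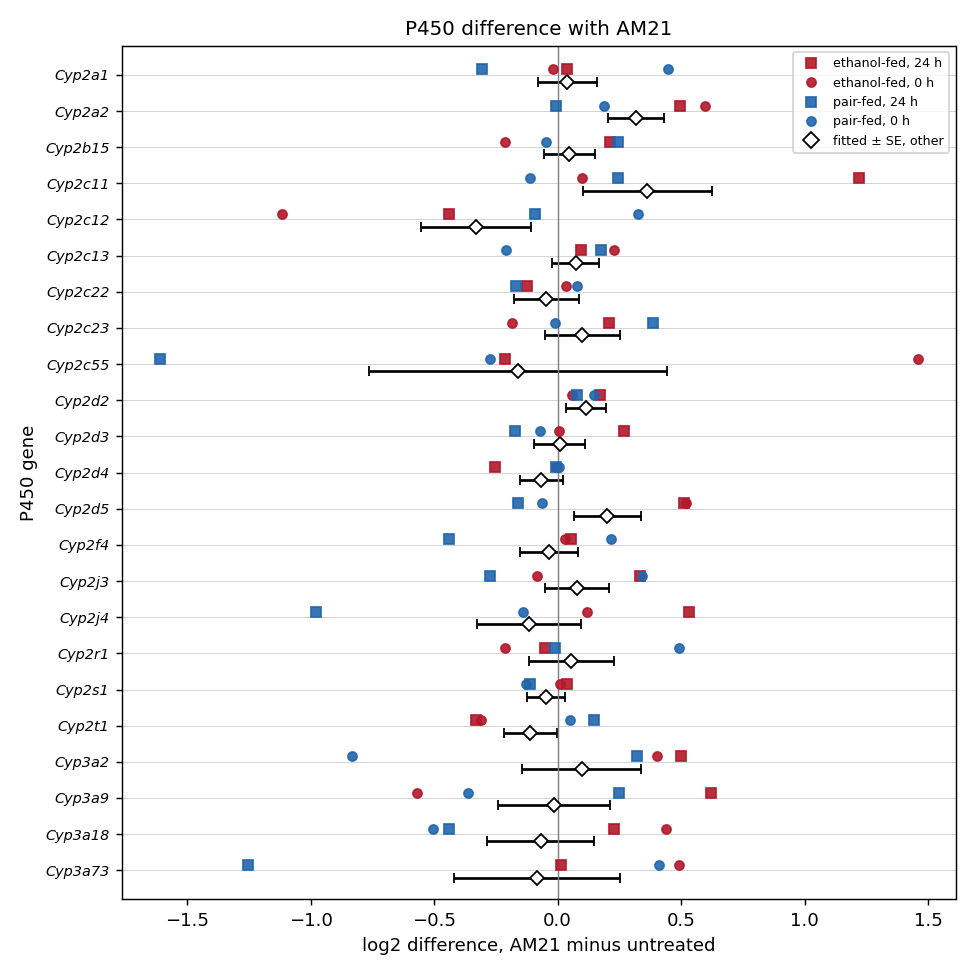
Difference between AM21 and untreated livers in the 23 tested P450 genes (x axis: log2 difference, AM21 minus untreated; y axis: gene). Coloured symbols are the 4 pairs of arrays (squares 24 h, circles 0 h) and diamonds the fitted difference with its SE. No diamond is black, since no gene passed, and the pairs of Cyp2c55 spread from -1.61 to 1.46.

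Neither the response to PHx by AM21 nor the diet difference by AM21 gave a call among the members, where 0% and 0.0345% of all tested genes were called (for diet by AM21, 0.023% with a positive and 0.0115% with a negative difference). The largest estimates were those of Cyp2c55. Its rise was smaller with AM21 (0.50 in the ethanol-fed and 3.22 in the pair-fed pool) than untreated (2.17 and 4.55), with a difference of -1.503 ± 0.21 (limma adjusted p = 0.181, and 0.00377 with an intensity trend and robust prior). Its diet difference was larger with AM21 by 1.56 ± 0.21 (adjusted p = 0.109). Each combination of diet and AM21 was held by a single pool, whose 24 h and 0 h arrays entered this fit as separate samples. The SE of diet by AM21 therefore holds no spread between replicate pools. Such a difference could equally reflect something peculiar to a single pool. Cyp3a9 rose more with AM21 (1.89 and 0.88) than untreated (0.70 and 0.27), by 0.90 ± 0.22, and did not pass (adjusted p = 0.382). At an unadjusted p under 0.05 there were 4 members and 604 genes for PHx by AM21, and 8 members and 529 genes for diet by AM21. The diet by AM21 counts share the lack of replicate pools described above. AM21 was injected again between the 0 h and 24 h samples, and untreated rats had no such injection. In PHx by AM21 the repeated injection therefore cannot be told apart from an altered response to PHx. The AM21 difference averaged over time mixes both states of dosing.

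The 11 members under a mean level of 5 were not tested, and 7 of them were under 5 on all 8 arrays. These 7 were Cyp1b1, Cyp2a3, Cyp2b12, Cyp2b21, Cyp2g1, Cyp2j16 and Cyp2w1, several of which are known from nose, skin or other tissues. Both CYP1 members were in this set. Cyp1a1, the classic target gene of the AhR, stood at 5.46 (AM21) and 4.20 (untreated) in ethanol-fed livers at 24 h, against 3.11 and 3.23 in pair-fed livers. At 0 h it stood at 3.72 (AM21) and 4.01 (untreated) in ethanol-fed livers, against 3.21 and 3.43 in pair-fed livers. The ethanol-fed AM21 24 h array was the single one above 5, and all ethanol-fed arrays were above all pair-fed arrays, at levels not shown to be above background.
Cyp1b1, which is mainly expressed outside hepatocytes, stood at 3.41 (AM21) and 3.34 (untreated) in ethanol-fed and 3.67 (AM21) and 3.98 (untreated) in pair-fed livers at 24 h. At 0 h Cyp1b1 stood at 3.68 (AM21) and 3.69 (untreated) in ethanol-fed and 3.66 (AM21) and 3.68 (untreated) in pair-fed livers, so the 0 h arrays were nearly level and the 24 h arrays were spread over 3.34 to 3.98. Cyp2u1, a fatty acid hydroxylase, was between 4.39 and 4.64 at 24 h and between 4.74 and 5.36 at 0 h. Cyp2j10 ranged from 3.87 to 5.35 and Cyp2b3 from 4.63 to 5.06 over the 8 arrays.

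**Figure D5:**
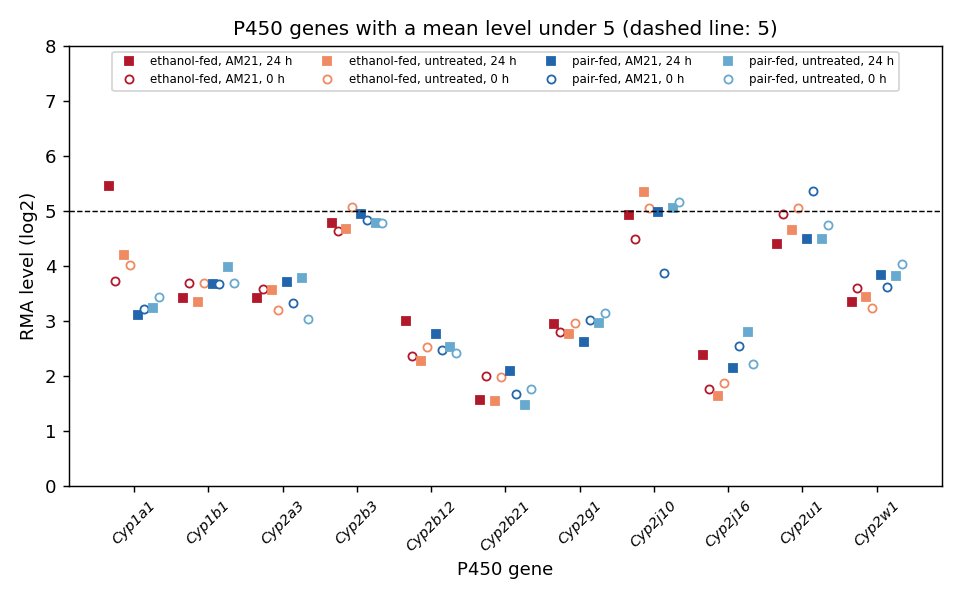
RMA log2 levels of the 11 P450 genes with a mean under 5 (y axis: log2 level; x axis: gene; each symbol 1 array, filled squares 24 h and open circles 0 h, colours the 4 pools, dashed line at 5). Cyp1a1 reached 5.46 on the ethanol-fed AM21 24 h array, while the other 7 arrays of that gene lay under 5.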

How the data were processed

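Per the submitters' processing notes, which name RMA and Affymetrix Expression Console without versions, the authors made the deposited log2 levels per probe set. RMA subtracts background, equalises the arrays and summarises probes, so a shift common to most genes would be hidden. Of 36685 probe sets, 18511 carry 1 symbol, 575 several and 17599 are unnamed here. The brightest probe set stood for each of 18166 genes, and the 8690 with a mean of at least 5 were tested. No read depth exists for arrays, and the number of pools limits precision.

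Fits used limma 3.58.1 in R 4.3.3, and p-values were adjusted by Benjamini-Hochberg and called under 0.05. The PHx change had the pool as a fixed block, since animal numbers show that both times came from the same rats. Diet and AM21 came from 1 additive fit, in which the estimated correlation within pools (-0.371) was set to 0. Interactions left 1 residual degree of freedom. P-values rest on the spread between pooled samples, not between animals, and limma draws this spread toward the variance of all tested genes. With this borrowing the smallest total degrees of freedom were 6.65 for PHx, 7.81 for diet and AM21 and 7.94 for the interactions. In the diet and AM21 fits the spread within pools entered as well. Scripts were tested on simulated data.

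Members, gene lists and tests were chosen with earlier results of these data known. Every member could be named. All 8 levels are given for members past the threshold (the 8 largest changes per direction) and for a fixed set of P450s, of which Cyp1a2, Cyp2c7, Cyp2d1 and Cyp3a62 were not analysed here. Other genes come from the lists, up to 4 each. Upstream sequences and miR-21 are from RefSeq (GRCr8), aligned with Biopython 1.88; the array's own build was not matched to it.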

Additional observations from a re-analysis of the deposited data

Results flagged for a closer look

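For each of 23 tested members the 4 pool changes with PHx, the 4 diet differences and the 4 AM21 differences were checked for a value far from the other 3, which made 69 groups of 4. Chance gives about 1 in 20, and 7 were found. The 3 kinds of difference share arrays, so they are not independent. Cyp2d4 stood apart through the ethanol-fed AM21 24 h array, with a PHx change of -1.03 in that pool, a diet difference of -0.14 and an AM21 difference of -0.25. Cyp3a2 stood apart through the pair-fed untreated 0 h array, with a PHx change of -1.54, a diet difference of -0.99 and an AM21 difference of -0.83. The diet difference of Cyp2d3 with AM21 at 24 h was 0.55, against 0.04 to 0.12 in the other 3 pairs. The PHx response of Cyp2c55 differed between the diets by -2.54 in the test of the interaction.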

How the results depend on the processing

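The count of members with a PHx response, 15, ran from 11 to 14 when 1 pool was left out, with 0 rises when the pair-fed AM21 pool was absent and 1 when the pair-fed untreated pool was. It was 13 to 16 in the other alternatives, with 1 rise and 12 falls without a level minimum. The diet count of 1 was 0 without a level minimum, in the 24 h arrays alone, in the AM21 pools alone and in the untreated pools alone. It was 2 with an intensity trend and robust prior, where 86 of 8690 genes were called instead of 40. The diet count was also 2 in the 0 h arrays alone, 3 on pool means and 4 with all 2-way interactions. It ran from 0 to 1 when 1 array was left out. The diet count over all genes, given below, moved between settings as well. The count for PHx by diet, 1, was 0 without a level minimum, without the pool block or without the other interaction. It was 5 with the intensity trend and robust prior, where 179 of 8690 genes were called. That setting also gave 1 for PHx by AM21 and 2 for diet by AM21, where the count was otherwise 0. In each of these, 26 of 8690 genes were called. Over all genes the PHx count of 2443 was 1466 to 1705 with 1 pool left out, the diet count of 40 ran from 0 to 285 the PHx by diet count of 46 from 0 to 179 and the AM21 count of 0 up to 8. Among members the AM21 count was 0 in every alternative run. Member rules with suffixed symbols, added after the data were seen, left all 6 counts as they were. No gene followed through the alternatives changed sign. The causes of these changes were not tested. Leaving out a pool in the interaction fits leaves no residual degrees of freedom and was not run. No paired analysis by replicate number was possible because the labels carry none; the pool block served instead. Levels under 5 carry no detection call, which limits Cyp2c55 at 0 h and all 11 untested members.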
